A study of Rattus norvegicus with 9 samples.

Results

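A set of 9 genes that regulate, take up or export cholesterol was followed across adipose-derived mesenchymal stem cells (ASCs) from 3 fat depots of the rat, namely Srebf1, Srebf2, Nr1h2, Nr1h3, Abca1, Abcg1, Mylip, Scarb1 and Npc1. They were chosen by name from the 35362 genes counted by RNA-seq, and the enzymes of cholesterol synthesis were left out. All 9 had counts in every sample and were among the 14770 genes tested. The depots were subcutaneous (SASCs), perirenal (PASCs) and epididymal (EASCs). The donors were male Sprague Dawley rats, 6 weeks old, which carried no named allele and received no treatment that differed between the groups. The cells were grown in culture to passage 3, and each group has 3 samples. Whether they stem from different animals is not stated, so that p-values measure the spread between these samples, which may be technical. SASCs are the common reference of the EASC and PASC comparisons, which therefore share samples.

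Cells hold free cholesterol within narrow limits with the help of opposing regulators. When membranes are low in sterol, SREBP proteins (encoded by Srebf1 and Srebf2) leave the endoplasmic reticulum with SCAP, are cut in the Golgi, and switch on the enzymes of lipid and sterol synthesis. When oxysterols accumulate, the LXR receptors (Nr1h3 for LXRα and Nr1h2 for LXRβ), paired with RXR, switch on the efflux pumps Abca1 and Abcg1, Mylip (a ubiquitin ligase that limits lipoprotein uptake) and Srebf1 itself. Fat tissue is a large store of free cholesterol in the body.

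RefSeq promoters on GRCr8 were found for 7 of the 9 genes, 8 promoters in all because Srebf1 has more than 1 start. Abcg1 and Scarb1 had no entry. Both strands of the 250 bases before each start were searched for a sterol regulatory element (SRE, the 5 letters ATCAC followed directly by CCCAC, with up to 1 mismatch), the E-box CACGTG with no mismatch, and the LXR repeat DR4 (AGGTCA, any 4 bases, then AGGTCA again, with up to 3 mismatches). Such matches were held by 1.63%, 5.59% and 18.6% of 33469 rat promoters, and no motif match overlapped another in the promoters of the set. The Srebf2 and Abca1 promoters, which both held a match, are shown. Srebf2, like Srebf1, encodes a factor that binds SREs, and Abca1 differed most from SASCs of the 9 genes. Capitals in the Srebf2 sequence mark the SRE match with 1 mismatch, 157 to 148 bases before the start. Capitals in the Abca1 sequence mark the E-box, 149 to 144 bases before the start, and a DR4 match with 3 mismatches on the opposite strand, 70 to 55 bases before it. Both sequences run 5′ to 3′ along the gene.
Srebf2, GRCr8 chr7:115543057-115543306, plus strand: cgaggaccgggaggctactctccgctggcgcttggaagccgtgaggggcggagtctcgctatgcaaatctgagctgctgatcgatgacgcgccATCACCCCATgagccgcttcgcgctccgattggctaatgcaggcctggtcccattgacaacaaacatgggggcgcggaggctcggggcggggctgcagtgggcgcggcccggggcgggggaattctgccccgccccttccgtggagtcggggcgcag
Abca1, GRCr8 chr5:72596474-72596723, minus strand: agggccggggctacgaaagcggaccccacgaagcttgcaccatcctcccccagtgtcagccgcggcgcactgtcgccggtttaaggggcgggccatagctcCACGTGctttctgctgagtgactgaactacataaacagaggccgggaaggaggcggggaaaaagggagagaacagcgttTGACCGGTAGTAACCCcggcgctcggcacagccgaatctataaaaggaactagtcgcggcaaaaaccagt
A DR4 match with 3 mismatches also lay 187 to 172 bases before the start of Npc1. The promoters of Srebf1, Nr1h2, Nr1h3 and Mylip held no match to any of the motifs. A match is only a run of letters in the window, and binding of the factors was not analysed here.

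Libraries held 17591916 to 30299032 counts, and TMM factors ran from 0.740 to 1.23. The share of ribosomal RNA genes was 10.4% to 15.5% in SASC samples, 22.4% to 32.9% in PASC samples and 15.9% to 40.3% in EASC samples. All 6 mesenchymal markers were found, with summed levels of 3100 to 3206 CPM (read counts scaled to the size of the library) in SASC samples and of 2017 to 2085 CPM in the rest. They did not move together: 3 were higher and 3 lower in EASCs than in SASCs, 3 were higher and 2 lower in PASCs, and the largest difference of the 6 in both was that of Pdgfra, at mean levels of 1543, 278 and 235 CPM for SASCs, PASCs and EASCs. Markers of other cell types differed between depots. The 6 adipocyte markers summed to 97.5 to 106.6 CPM in SASC samples, 22.2 to 23.99 CPM in PASC samples and 11.5 to 12.6 CPM in EASC samples, and all 5 that were tested were lower in PASCs and EASCs. The 8 macrophage markers found of 9 summed to 91.5 to 99.4 CPM, 139 to 143.5 CPM and 239.7 to 248.7 CPM, in the same order, with Ptprc (CD45) at only 1.02, 1.62 and 3.06 CPM. Smooth muscle markers summed to 158.7 to 170.0 CPM in SASC samples, 2829 to 3126 CPM in PASC samples and 6317 to 6685 CPM in EASC samples. Markers of dividing cells summed to 50.7 to 54.0 CPM, 436 to 449 CPM and 252 to 258 CPM in the same order, mesothelial markers to 15.2 to 16.0 CPM, 76.8 to 78.8 CPM and 95.1 to 105.6 CPM, and endothelial markers to 41.6 to 44.2 CPM, 11.5 to 14.3 CPM and 29.3 to 32.1 CPM. Of 5 endothelial markers, 1 was higher and 2 lower in EASCs than in SASCs, and 1 was higher and 4 lower in PASCs. Of the 8 macrophage markers, 7 were higher and 0 lower in EASCs, and 6 were higher and 2 lower in PASCs. Of the steroid-producing markers, 2 of 8 were tested and went opposite ways, with Star at mean levels of 2.41, 34.4 and 171 CPM, Cyp21a1 at 1.19, 0.0380 and 0.0577 CPM, and only 1 read of Cyp17a1 in all samples. No marker was at 0 in all samples. The part of these markers in the results was not tested. With the ribosomal RNA genes removed from the counts, the same numbers of the 9 genes passed in the 3 comparisons (7, 7 and 5), and Abca1 differed from SASCs by -2.46 in EASCs and -2.93 in PASCs.

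Below, levels are TMM-normalised CPM, differences are log2 fold changes from edgeR's quasi-likelihood test with p-values adjusted over all 14770 genes by the Benjamini-Hochberg method, and DEGs have an adjusted p under 0.05 and a fold change above 2. In EASCs, 7 of the 9 genes were downregulated against SASCs (Srebf1, Srebf2, Nr1h3, Abca1, Abcg1, Mylip and Npc1) and none was upregulated, in a comparison where 34.3% of all genes tested were called lower, 35.5% higher and 69.7% in either direction. In PASCs, the same 7 genes were downregulated and none was upregulated, against 34.6% of all genes called lower and 69.2% in either direction. Nr1h2 and Scarb1 did not pass the test in either comparison. The median difference of the 9 genes was -0.95 in EASCs and -0.95 in PASCs, beside 0.01 and -0.01 over all genes. Among DEGs were Srebf1, Abca1, Abcg1 and Mylip in EASCs (27.8% of all genes were DEGs and 14.2% were lower DEGs), and Abca1, Abcg1, Mylip and Npc1 in PASCs (26.9% and 14.9%). Between EASCs and PASCs, 4 genes were lower in EASCs (Srebf1, Srebf2, Mylip and Scarb1; 14.5% of all genes were called lower and 30.7% in either direction) and Abca1 was higher (16.1% of all genes were called higher). Srebf1 alone was a DEG there, where 7.39% of all genes were DEGs, 2.2% of them lower and 5.19% higher as shares of all genes. Its fold change of 2.006 was just past the limit, and it was no DEG with upper-quartile scaling (-0.976), without PASCs 1 (-0.974) or without EASCs 2 (-0.972). In cultures measured in bulk, fewer cells of a type and less RNA per cell cannot be told apart.

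**Figure D1:**
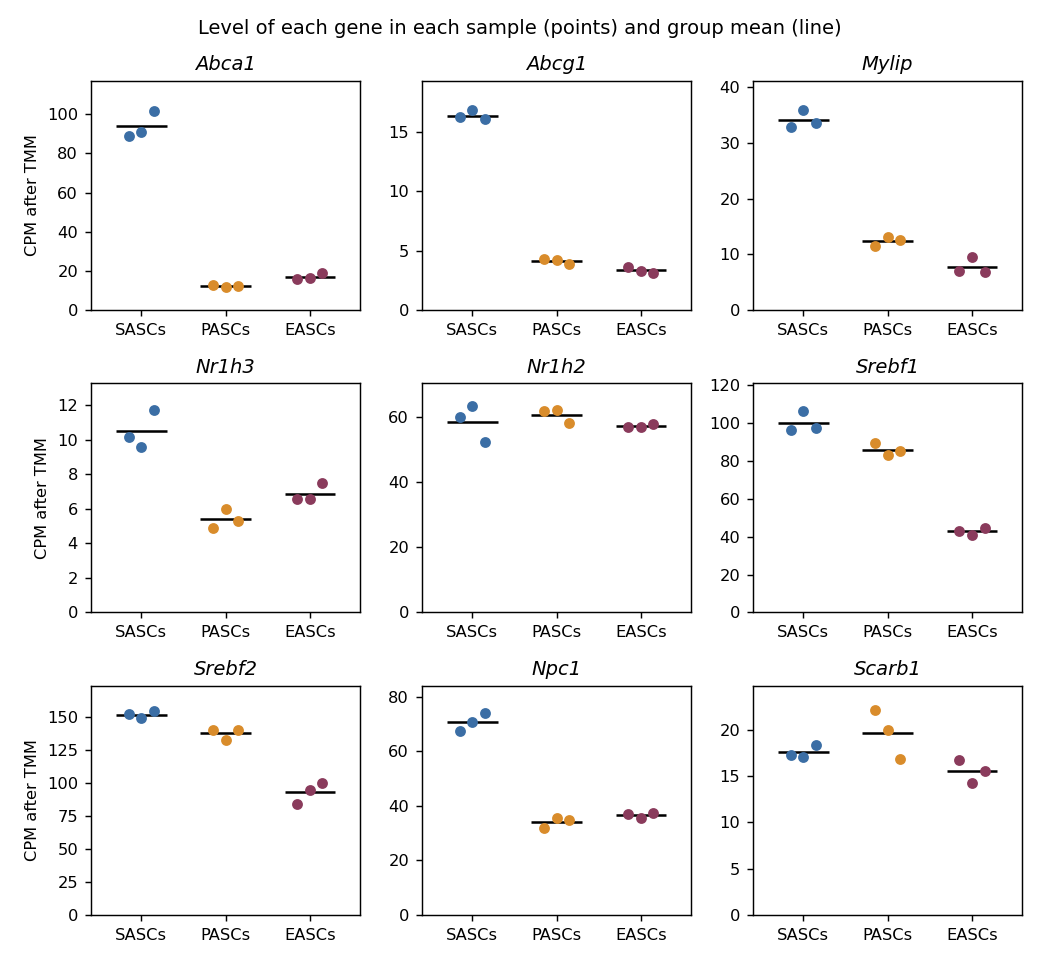
Level of each of the 9 genes in every sample, in TMM-normalised CPM on linear axes that start at 0, with points for the 3 samples of SASCs, PASCs and EASCs and a line for each group mean. Abca1, Abcg1, Mylip, Npc1, Nr1h3, Srebf1 and Srebf2 sit higher in all 3 SASC samples than in any other sample, while the SASC samples of Nr1h2 overlap both other groups. How many of all genes tested do the same was not counted.

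The LXR receptors differed from each other. Nr1h2, which encodes the broadly expressed receptor LXRβ (rn6 chr1:100554577-100559896, minus strand), had 60.0, 63.5 and 52.5 CPM in SASC samples 1, 2 and 3, 62.0, 62.2 and 58.4 CPM in PASCs, and 56.9, 57.0 and 58.0 CPM in EASCs. SASCs overlapped both other groups, and the PASC samples lay just above the EASC samples. The difference was -0.04 in EASCs (95% interval -0.17 to 0.10; edgeR adjusted p = 0.641) and 0.05 in PASCs (-0.08 to 0.19; edgeR adjusted p = 0.494) against SASCs, and -0.09 between EASCs and PASCs (-0.22 to 0.05; edgeR adjusted p = 0.348). Nr1h2 missed the threshold in EASCs with DESeq2 size factors (-0.05, DESeq2 adjusted p = 0.548) and upper-quartile scaling too (0.0016, edgeR adjusted p = 0.984). With unscaled total counts, where the median of all genes itself moved to -0.39, Nr1h2 was lower in EASCs by edgeR (-0.43, adjusted p = 0.0146).

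Nr1h3, which encodes LXRα, the form found mainly in liver, fat and macrophages (rn6 chr3:80004130-80014197, minus strand), had 10.2, 9.59 and 11.7 CPM in SASCs, 4.90, 5.98 and 5.30 CPM in PASCs, and 6.57, 6.57 and 7.52 CPM in EASCs. Every SASC sample was above every PASC and EASC sample, and PASCs were the lowest. Nr1h3 was downregulated by -0.60 ± 0.131 (SE, n = 3 per group) in EASCs (edgeR adjusted p = 2.04e-04) and by -0.95 ± 0.134 in PASCs (edgeR adjusted p = 5.29e-07). The EASC and PASC samples did not overlap, but their difference of 0.35 ± 0.140 missed the threshold (edgeR adjusted p = 0.0591).

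The balance of the LXR forms differed between depots. Per unit of gene length, Nr1h3 was at 0.160 of the level of Nr1h2 in SASCs, 0.0794 in PASCs and 0.108 in EASCs. The log2 ratio was -2.64 ± 0.289 (SD, n = 3) in SASCs, -3.65 ± 0.145 in PASCs and -3.22 ± 0.0966 in EASCs. A two-sided exact permutation test over all ways of giving the 9 samples to 3 groups of 3 gave p = 0.00357, the smallest it can give, or 0.0107 adjusted over the 3 ratios computed.

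Abca1, the transporter that moves cholesterol and phospholipid to lipid-free apolipoproteins (rn6 chr5:69857717-69983036, minus strand), differed from SASCs more than the other genes of the set did. It had 88.7, 90.8 and 101.9 CPM in SASCs, 12.7, 11.9 and 12.2 CPM in PASCs, and 15.8, 16.5 and 18.7 CPM in EASCs, from at least 230 reads in every sample. No group overlapped another. Abca1 was 5.52-fold lower in EASCs than in SASCs (-2.46 ± 0.0773, edgeR adjusted p = 1.12e-20) and 7.63-fold lower in PASCs (-2.93 ± 0.0804, edgeR adjusted p = 6.13e-22). EASCs were 1.38-fold above PASCs (0.47 ± 0.0877, edgeR adjusted p = 1.28e-04). With total counts alone as the scale this difference missed the threshold (0.39, edgeR adjusted p = 0.128).

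Abcg1, which passes cholesterol on to HDL particles (rn6 chr20:9743269-9842735, plus strand), had 16.2, 16.9 and 16.1 CPM in SASCs, 4.32, 4.19 and 3.87 CPM in PASCs, and 3.64, 3.32 and 3.09 CPM in EASCs. SASCs stood apart, and the PASC samples lay just above the EASC samples. The gene was 4.88-fold lower in EASCs (-2.29 ± 0.129, edgeR adjusted p = 6.7e-15) and 3.95-fold lower in PASCs (-1.98 ± 0.126, edgeR adjusted p = 8.58e-14). Between EASCs and PASCs the difference was -0.30 ± 0.147 (edgeR adjusted p = 0.125). Per unit of length, the ratio of Abca1 to Abcg1 was 3.49 in SASCs, 1.82 in PASCs and 3.09 in EASCs, with log2 values of 1.81 ± 0.130, 0.86 ± 0.0747 and 1.63 ± 0.240 (SD, n = 3; exact permutation p = 0.0143, adjusted p = 0.0143). On this log2 scale the EASC samples (1.405 to 1.882) overlapped the SASC samples (1.72 to 1.955), and the PASC samples lay below both.

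Mylip, the ubiquitin ligase also called Idol (rn6 chr17:19682040-19703681, minus strand), had 32.8, 35.9 and 33.5 CPM in SASCs, 11.5, 13.05 and 12.5 CPM in PASCs, and 7.08, 9.44 and 6.89 CPM in EASCs. The groups did not overlap, and SASCs, PASCs and EASCs followed each other in falling order. It was 4.35-fold lower in EASCs (-2.12 ± 0.107, edgeR adjusted p = 5.6e-16), 2.76-fold lower in PASCs (-1.46 ± 0.102, edgeR adjusted p = 6.4e-13), and lower in EASCs than in PASCs (-0.66 ± 0.115, edgeR adjusted p = 5.12e-05).

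The SREBP genes were lower in EASCs than in the other depots, and differed less between PASCs and SASCs. Srebf1, which drives genes of fatty acid synthesis (rn6 chr10:46570996-46593009, minus strand), had 96.2, 106.5 and 97.5 CPM in SASCs, 89.4, 83.2 and 85.1 CPM in PASCs, and 42.9, 40.9 and 44.8 CPM in EASCs. All PASC samples lay below all SASC samples, and EASCs lay far below both. Srebf1 was 2.34-fold lower in EASCs than in SASCs (-1.22 ± 0.0615, edgeR adjusted p = 4.79e-16) and 2.01-fold lower than in PASCs (-1.004 ± 0.0617, edgeR adjusted p = 3.35e-13). The difference between PASCs and SASCs was -0.22 ± 0.0590 (edgeR adjusted p = 0.00176). Srebf1 overlaps Rai1 on the other strand by 596 bases, and use of strand in counting is not given in the sources used here, so a share of reads may be assigned to either gene.

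Srebf2, the main regulator of cholesterol synthesis (rn6 chr7:123381082-123438605, plus strand), had 152, 149.7 and 154 CPM in SASCs, 140.0, 133 and 140.5 CPM in PASCs, and 84.1, 95.2 and 100.5 CPM in EASCs. The groups did not overlap, although the EASC samples spread more widely than the rest. Srebf2 was lower in EASCs than in SASCs (-0.71 ± 0.0598, edgeR adjusted p = 4.01e-11) and than in PASCs (-0.56 ± 0.0599, edgeR adjusted p = 1.86e-08). The small difference between PASCs and SASCs (-0.14 ± 0.0589, edgeR adjusted p = 0.0348) no longer passed when SASCs 1, 2 or 3, PASCs 1 or 2, or EASCs 2 was left out (adjusted p from 0.0503 to 0.144). An intron of Srebf2 hosts the microRNA miR-33, which represses Abca1, and its mature sequence is shown from RefSeq with the seed, bases 2 to 8, in capitals. The level of the microRNA was not analysed here.
rno-miR-33-5p, GRCr8 chr7:115593957-115593977, plus strand: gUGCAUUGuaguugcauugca

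The balance of the SREBP genes set EASCs apart, while the SASC and PASC samples overlapped. Per unit of length, the ratio of Srebf1 to Srebf2 was 0.775 in SASCs, 0.734 in PASCs and 0.543 in EASCs, with log2 values of -0.37 ± 0.0991, -0.45 ± 0.0382 and -0.88 ± 0.131 (SD, n = 3; exact permutation p = 0.0107, adjusted p = 0.0143).

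**Figure D2:**
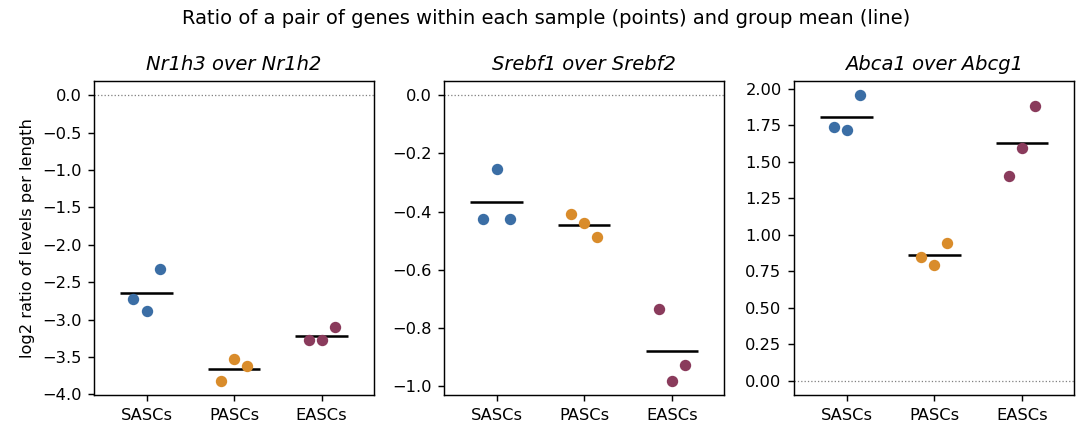
Log2 ratio of 3 gene pairs per unit of gene length, with 1 point for each sample and a line for the mean of each depot. Nr1h3 relative to Nr1h2 and Abca1 relative to Abcg1 are lowest in PASCs, and Srebf1 relative to Srebf2 is lowest in EASCs.

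Scarb1, the HDL receptor SR-BI that takes up cholesteryl ester (rn6 chr12:36694957-36761445, plus strand), had 17.3, 17.0 and 18.3 CPM in SASCs, 22.1, 19.96 and 16.8 CPM in PASCs, and 16.7, 14.3 and 15.5 CPM in EASCs. PASC sample 3 lay below all SASC samples, while the other two PASC samples lay above them. All EASC samples lay below all samples of both other groups. The difference against SASCs was -0.18 in EASCs (95% interval -0.39 to 0.03; edgeR adjusted p = 0.123) and 0.17 in PASCs (-0.03 to 0.38; edgeR adjusted p = 0.131). With total counts alone, Scarb1 passed in EASCs (-0.58, edgeR adjusted p = 0.00242) and was -0.16 in PASCs. Without PASCs 3, it passed in PASCs (0.26, edgeR adjusted p = 0.0253). Scarb1 was lower in EASCs than in PASCs (-0.35 ± 0.101, edgeR adjusted p = 0.00917), which did not hold without PASCs 1 (adjusted p = 0.0913) or EASCs 2 (adjusted p = 0.0603).

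Npc1, the lysosomal membrane protein that releases cholesterol taken up with LDL (rn6 chr18:3616878-3662715, minus strand), had 67.4, 70.8 and 74.2 CPM in SASCs, 32.0, 35.7 and 35.0 CPM in PASCs, and 37.0, 35.4 and 37.3 CPM in EASCs. Both visceral depots lay near the same level, and all their samples were below those of SASCs. Npc1 was 1.94-fold lower in EASCs (-0.95 ± 0.0660, edgeR adjusted p = 5.73e-13) and 2.07-fold lower in PASCs (-1.05 ± 0.0663, edgeR adjusted p = 8.39e-14), where it was no DEG without PASCs 1 (-0.998). EASCs and PASCs differed by 0.10 (95% interval -0.04 to 0.24; edgeR adjusted p = 0.320). Npc1 overlaps RGD1311805, whose group means were between 24.02 and 36.6 CPM, on the other strand by 283 bases, and LOC100361170, with 56 reads in all samples together.

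**Figure D3:**
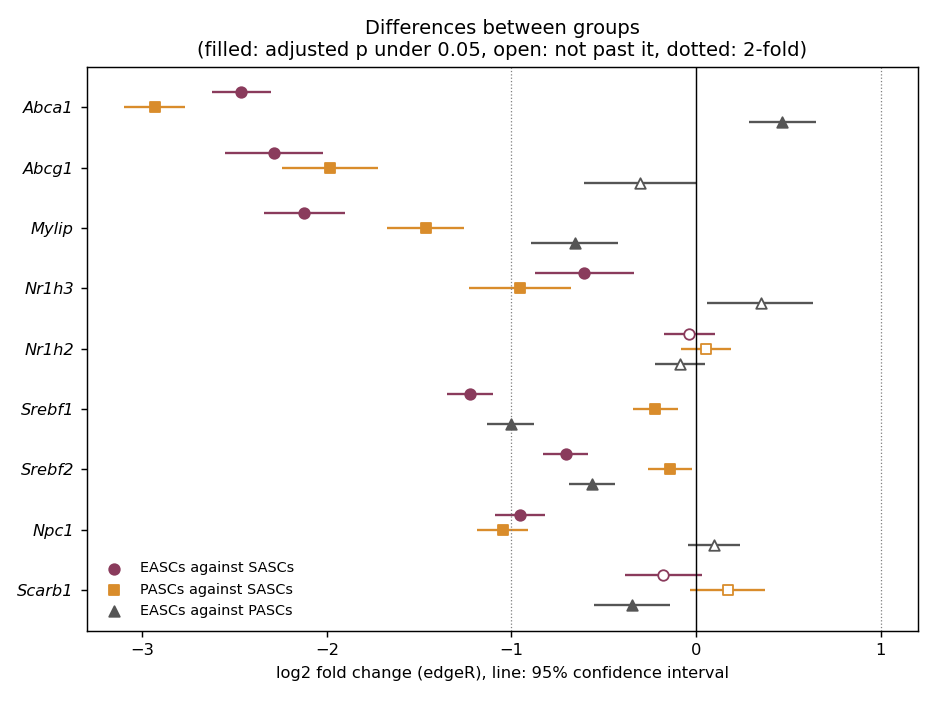
Log2 fold change of the 9 genes with its 95% interval for EASCs against SASCs, PASCs against SASCs and EASCs against PASCs. Abca1, Abcg1 and Mylip reach from -1.46 to -2.93 in the comparisons with SASCs, and the intervals of Nr1h2 and Scarb1 cross 0 there.

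Levels of different genes can be compared only per unit of length, as FPKM, which divides CPM by the length of the gene in kilobases. In SASCs the order of mean FPKM was Nr1h2 (30.4 ± 2.91 SD, n = 3), Srebf2 (27.2), Srebf1 (21.1), Npc1 (13.6), Mylip (11.1), Abca1 (8.93), Scarb1 (7.08), Nr1h3 (4.87) and Abcg1 (2.55), and Nr1h2 and Srebf2 overlapped between samples. In PASCs Nr1h2 (31.6 FPKM), Srebf2 (24.6) and Srebf1 (18.1) again came first, and Abca1 (1.17) and Abcg1 (0.642) were last. In EASCs the order began with Nr1h2 (29.7 FPKM), Srebf2 (16.7) and Srebf1 (9.03), and ended with Abca1 (1.62) and Abcg1 (0.521). Abca1 thus stood above Nr1h3 in SASCs (8.93 and 4.87 FPKM) and below it in PASCs (1.17 and 2.51) and EASCs (1.62 and 3.20). Neighbours that overlapped between samples were Scarb1 (7.93 FPKM) and Npc1 (6.56) in PASCs, and Nr1h3 and Mylip (2.54) in EASCs.

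Likeness of pattern was measured as the root mean square difference of centred log2 CPM over the 9 samples, among genes with a mean of at least 1 CPM. By this measure, the nearest gene was Twist1 for Srebf1 (0.0840), Pex11a for Srebf2 (0.0816), Ntpcr for Nr1h2 (0.0344), Slc25a44 for Nr1h3 (0.0726), Pde3a for Abca1 (0.0917), Renbp for Abcg1 (0.0840), Mapkapk3 for Mylip (0.120), Commd1 for Scarb1 (0.0649) and Sulf2 for Npc1 (0.0555). In the same order of the 9 genes, the second nearest were Fdft1 (0.0914), Agpat2 (0.0825), Nlrx1 (0.0476), Zfp467 (0.0839), Rasa3 (0.1001), Lhfpl2 (0.103), Thbd (0.146), Mif4gd (0.0729) and Timp2 (0.0571). Within the set, the closest pairs were Nr1h2 and Scarb1 (0.164), Nr1h3 and Npc1 (0.168), Srebf1 and Srebf2 (0.239), Srebf2 and Scarb1 (0.261), and Abcg1 and Mylip (0.262). The first pair holds the genes that did not pass against SASCs. All these pairs were further apart than any of the 9 genes was from its nearest and second nearest gene outside the set.

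With the 5 members of the set taken out, 10 genes of the target list were tested, of which 6 were downregulated and 1 was upregulated in EASCs, and 9 were downregulated and none was upregulated in PASCs. Of all genes tested, 34.3% were called lower in EASCs and 34.6% in PASCs, and 69.7% and 69.2% in either direction. The median difference of the 10 genes was -1.07 in EASCs and -0.76 in PASCs. Lpl, the lipase that frees fatty acids from lipoproteins, had 1694, 1709 and 1763 CPM in SASCs, 102.1, 111 and 133 CPM in PASCs, and 110.6, 115 and 110.6 CPM in EASCs (-3.94 ± 0.0756 in EASCs and -3.90 ± 0.0754 in PASCs, edgeR adjusted p = 2.13e-25 and 3.36e-25). Scd, a fatty acid desaturase that is also an SREBP target, had mean levels in SASCs, PASCs and EASCs of 1652 ± 14.8, 1485 ± 63.9 and 506 ± 15.1 CPM (SD, n = 3), so that EASCs stood apart from both other groups. Arl4c was the only gene of the list that was upregulated in EASCs (0.66 ± 0.208, edgeR adjusted p = 0.00630). Mlxipl, with 47 reads in SASCs, had none in EASCs and was at least 15.3-fold lower there against a floor of 3 reads over the group.

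**Figure D4:**
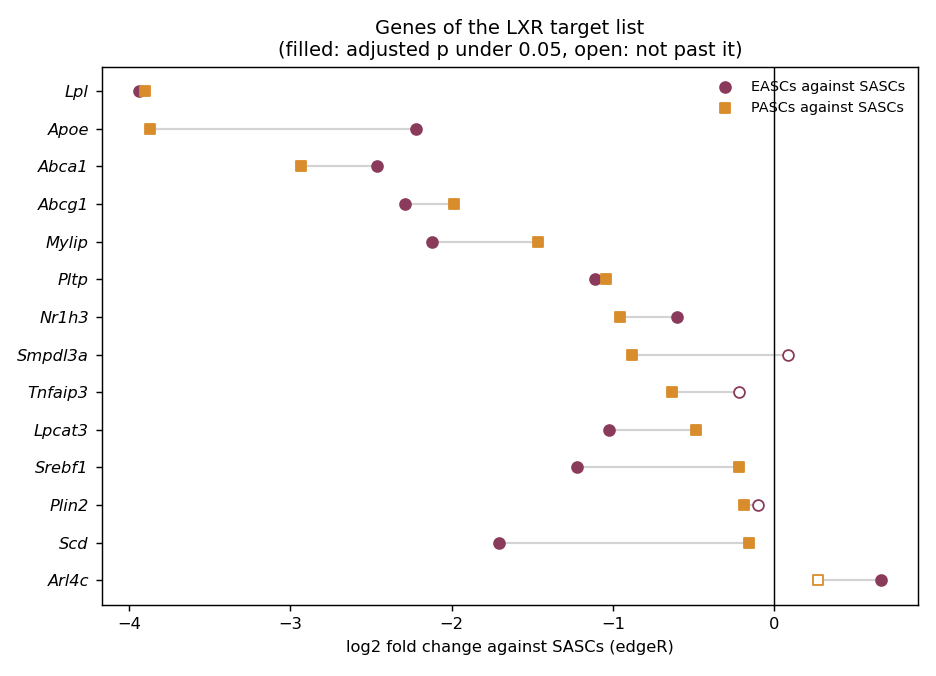
Log2 fold change of 14 genes of the LXR target list in EASCs (circles) and PASCs (squares) against SASCs, filled where the adjusted p was under 0.05 and open where it was not. Most points lie below 0, from -3.94 for Lpl to 0.66 for Arl4c. Among the 14 are Abca1, Abcg1, Mylip, Srebf1 and Nr1h3 of the set itself, and Mlxipl is left out.

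Genes of cholesterol efflux beyond Abca1 and Abcg1 were lower, and Apoe and Pltp among them are also in the LXR target list above. All 6 that were tested of 11 were downregulated in both EASCs and PASCs, with medians of -0.997 and -0.94, beside 34.3% and 34.6% of all genes called lower. Apoe, the apolipoprotein that accepts cholesterol from the pumps, ranged from 799 to 864 CPM in SASC samples, from 53.8 to 61.8 CPM in PASC samples and from 171 to 189.5 CPM in EASC samples, with no overlap. Its differences were -2.22 ± 0.0619 in EASCs and -3.87 ± 0.0674 in PASCs (edgeR adjusted p = 7.47e-22 and 4.16e-26), and EASCs exceeded PASCs (1.65 ± 0.0637, edgeR adjusted p = 1.63e-17). Lcat, which esterifies cholesterol on HDL, fell by 1.62 and 1.65 on the log2 scale in EASCs and PASCs. Pltp, the phospholipid transfer protein, fell by 1.11 and 1.04, and Abcg4, a relative of Abcg1, fell by 0.88 and 0.43 (edgeR adjusted p = 0.0437 for the last). Pltp overlaps the abundant gene Ctsa by 159 bases.

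Of 12 tested partners and coregulators of LXR and RXR, 9 were downregulated and 2 were upregulated in EASCs, and 9 and 2 likewise in PASCs, beside 34.3% and 34.6% of all genes called lower. Rxra, a form of the RXR partner of LXR, had 23.5, 26.02 and 28.7 CPM in SASCs, 13.9, 14.3 and 12.5 CPM in PASCs, and 9.21, 12.4 and 9.98 CPM in EASCs (-1.30 ± 0.109 in EASCs and -0.93 ± 0.106 in PASCs, edgeR adjusted p = 3.18e-11 and 1.28e-08). Rxrb, another RXR form, had mean levels of 25.05 ± 1.46, 30.1 ± 3.61 and 25.1 ± 0.842 CPM (SD, n = 3) for SASCs, PASCs and EASCs. It was upregulated in PASCs (0.27 ± 0.0851, edgeR adjusted p = 0.00697) and differed by 0.00 in EASCs (95% interval -0.17 to 0.18), where it did not pass. The lipid receptors that share RXR fell, Pparg by 2.23 and 1.67, Ppara by 1.78 and 1.80, and Ppard by 1.22 and 0.54 on the log2 scale in EASCs and PASCs. Of 6 tested enzymes that make or clear oxysterols, the LXR ligands, 4 were downregulated in EASCs and 5 in PASCs, and none was upregulated, with the same shares of all genes. Cyp27a1, which makes 27-hydroxycholesterol, had mean levels of 31.3 ± 1.64, 4.95 ± 0.859 and 8.43 ± 1.90 CPM (SD, n = 3) in SASCs, PASCs and EASCs. Ch25h, which makes 25-hydroxycholesterol, fell by 1.06 and 1.02, and Cyp39a1, which clears oxysterols, fell by 2.67 and 1.92. Cyp7b1, which clears them too, was lowest in PASCs, at 0.928 ± 0.0685 CPM, with 4.64 ± 0.273 CPM for SASCs and 5.888 ± 1.08 CPM for EASCs, and EASCs differed from PASCs by 2.67 ± 0.218 (edgeR adjusted p = 1.17e-10).

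Of 12 genes of the machinery that cuts and holds SREBP, 5 were downregulated and 2 upregulated in EASCs, and 4 and 2 in PASCs, with medians of 0.03 and -0.02, where 69.7% and 69.2% of all genes were called in either direction. Insig1, which retains SCAP in the endoplasmic reticulum and is itself an SREBP target, had 666, 637 and 643 CPM in SASCs, 227.5, 231 and 245 CPM in PASCs, and 72.4, 68.9 and 67.8 CPM in EASCs. The listed span of Kmt2c, chr4:82507-6294413, holds all 8214 bases of Insig1, so that reads may be shared. Kmt2c had mean levels of 54.3, 34.9 and 35.2 CPM in SASCs, PASCs and EASCs. Rnf139, a ubiquitin ligase of the endoplasmic reticulum, fell by 0.52 and 0.45 on the log2 scale in EASCs and PASCs. Erlin1 fell by 0.49 in EASCs and differed by -0.14 in PASCs, where it did not pass (edgeR adjusted p = 0.0728). Of 20 enzymes that are SREBP targets, given for context, 20 were downregulated in EASCs, and 12 were downregulated and 4 upregulated in PASCs, beside 34.3% of all genes called lower in EASCs and 34.6% in PASCs. Their median difference was -1.13 in EASCs and -0.22 in PASCs, and all 20 were lower in EASCs than in PASCs (median -1.03, with 14.5% of all genes called lower), next to the differences of Srebf1 (-1.22, -0.22 and -1.004) and Srebf2 (-0.71, -0.14 and -0.56) in the same comparisons.

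Of 12 genes of sterol uptake, 6 were downregulated and 5 upregulated in EASCs, and 5 and 7 in PASCs, while all genes were called 34.3% lower and 35.5% higher in EASCs, and 34.6% in each direction in PASCs. Olr1, the scavenger receptor LOX-1 for oxidised LDL, had 1.60, 1.49 and 1.12 CPM in SASCs, 47.9, 50.2 and 53.7 CPM in PASCs, and 196, 201 and 197 CPM in EASCs (7.11 ± 0.0949 in EASCs and 5.14 ± 0.101 in PASCs, edgeR adjusted p = 1.13e-28 and 5.1e-25). Msr1, a macrophage scavenger receptor, was upregulated in both, with mean levels of 4.55 ± 1.28, 11.6 ± 0.505 and 19.4 ± 0.458 CPM (SD, n = 3) for SASCs, PASCs and EASCs, beside the summed macrophage markers given above. Lrp1, a large endocytic receptor, fell by 1.90 and 1.91 on the log2 scale in EASCs and PASCs.

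Of 16 tested genes that move sterol inside the cell, 8 were downregulated and 4 upregulated in EASCs, and 9 and 4 in PASCs, with medians of -0.14 and -0.54, where 69.7% and 69.2% of all genes were called in either direction. The lysosomal membrane proteins Lamp1 and Lamp2 fell by 1.13 and 0.94 on the log2 scale in EASCs, and by 1.24 and 1.18 in PASCs. Stard4, a carrier of free cholesterol, had mean levels of 20.9 ± 0.721, 12.5 ± 0.432 and 6.50 ± 0.858 CPM (SD, n = 3) for SASCs, PASCs and EASCs. Gramd1c, of a family of sterol carriers at membrane contacts, was upregulated in EASCs and PASCs (2.19 ± 0.326 and 1.44 ± 0.342, edgeR adjusted p = 1.3e-06 and 5.77e-04) from a mean of 0.667 CPM in SASCs, and its listed span overlaps other genes.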

How the data were processed

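RNA-seq of 9 samples (3 each of SASCs, PASCs and EASCs, grouped by their labels) was analysed. Per the methods of the study, reads were trimmed with cutadapt and FastX-Toolkit and aligned with TopHat. The authors deposited raw counts of reads per gene, with gene positions and lengths. The methods name rn6 and the submitters' processing notes name TopHat2 and rn5. Positions are given as deposited and taken as rn6, since the table uses scaffold names of rn6. The counting tool and use of strand are not given in the sources used here. In the deposited table, 27 gene names had been turned into dates.

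Counts were filtered with filterByExpr (14770 of 35362 genes kept), TMM-normalised and fitted with edgeR 4.0.16 in R 4.3.3 (quasi-likelihood test, all 9 samples, no block). The common biological coefficient of variation was 0.0685. A floor of 3 reads equals 0.104 to 0.159 CPM per sample and covers counting error only. FPKM was computed from TMM-normalised CPM and the deposited gene length. Ratios used a prior count of 0.5. Alternatives were DESeq2 1.42.0, other scalings, no filter, removal of ribosomal RNA genes, only the 2 groups compared, a replicate block and leaving out each sample. The script was tested on simulated data.

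The 9 genes and the lists of pathway genes and markers were chosen with earlier results of these data known. All 9 genes are named, with at most 4 genes of each list that had the largest changes among those past the test with a mean of at least 1 CPM, and the 2 nearest genes in pattern of each. Some genes that the rule selects are not reported here. Arl4c, Mlxipl, Rxrb and the markers Pdgfra, Ptprc, Star, Cyp21a1 and Cyp17a1 are named outside this rule, chosen after their values were seen.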

Additional observations from a re-analysis of the deposited data

How the results depend on the processing

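Over the 9 genes, 3 comparisons and all alternatives, 412 of 432 values kept their direction and their side of the threshold, 10 no longer passed, 5 newly passed and 5 changed sign. All sign changes were of values that did not pass: Nr1h2 in PASCs against SASCs with total counts alone (-0.28) and without SASCs 3 (-0.0189, range over samples left out -0.02 to 0.11), Nr1h2 in EASCs against SASCs with upper-quartile scaling (0.0016) and without SASCs 2 (0.0223, range -0.11 to 0.02), and Scarb1 in PASCs against SASCs with total counts alone (-0.16). With total counts alone, the median of all genes moved to -0.39 in EASCs against SASCs, -0.33 in PASCs against SASCs and -0.08 in EASCs against PASCs, upregulated DEGs made up 28.3%, 28.5% and 64.4% of all DEGs in place of 48.8%, 44.7% and 70.2%, 9 of the 9 genes passed in EASCs against SASCs in place of 7, and 3 of the 9 genes passed between EASCs and PASCs in place of 5, because Abca1 (0.39) and Scarb1 (-0.42) no longer did. Leaving out 1 sample gave 7 genes past the threshold in EASCs against SASCs in every case, 6 to 8 in PASCs against SASCs and 4 to 6 between EASCs and PASCs. Nr1h3 passed between EASCs and PASCs with upper-quartile scaling (0.38, edgeR adjusted p = 0.0406) and without PASCs 2 (0.44, edgeR adjusted p = 0.0449).

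Genes near a fold change of 2 crossed it: Npc1 in PASCs was no DEG without PASCs 1, Srebf1 between EASCs and PASCs was none with upper-quartile scaling or without PASCs 1 or EASCs 2, and Nr1h3 in PASCs became one without SASCs 2 or PASCs 2. With total counts alone, 7 of the 9 genes were DEGs in EASCs against SASCs in place of 4 (Srebf2, Nr1h3 and Npc1 added) and 5 in PASCs in place of 4 (Nr1h3 added). Same-numbered samples did not deviate together (correlations from -0.0348 to 0.0380). With the replicate number as a block, 7, 7 and 5 of the 9 genes passed, as without it, Abca1 differed by -2.46 in EASCs, and 4061, 3944 and 1067 genes were DEGs in place of 4105, 3979 and 1091. For the ratios, the alternatives were no prior count and leaving out each sample. The permutation p over the 3 groups stayed under 0.05 in each. The EASC minus SASC difference of log2 ratios was not tested by itself. Leaving out 1 sample moved it from -0.57 to between -0.69 and -0.41 for Nr1h3 to Nr1h2. For Srebf1 to Srebf2 it moved from -0.51 to between -0.59 and -0.46, and for Abca1 to Abcg1 from -0.18 to between -0.31 and -0.07. With 3 samples a group, precision is limited most for the genes of lowest level, Abcg1 and Nr1h3.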
